A study of Mus musculus with 12 samples.

Results

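The killing machinery of lymphocytes was followed through 10 of the 43626 genes counted, namely the granzyme genes Gzma, Gzmb, Gzmk and Gzmm, the perforin gene Prf1, the granule genes Nkg7, Srgn and Lamp1, and the surface molecule genes Fasl and Crtam. They were taken by symbol from the table of read counts, and all 10 were found and passed the filter on low counts that left 13238 genes for testing. RNA was sequenced from splenic CD4+ T cells in 12 libraries of 4 groups with 3 libraries each. Naive CD45RBhi CD25- CD4+ cells were sorted from donors in which 1 allele of Eomes, encoding the T-box factor EOMES, was floxed and the other carried a green fluorescent protein (GFP) reporter. They were transferred into adult male Rag2-/- mice. The CD4+ cells of each of 6 recipients were sorted by GFP 3 weeks later. Donors of genotype Eomes flox/GFP with no cre are called Het and those with Lck-cre, which acts in T cells from early in their development, are called KO. Each genotype gave a GFP-positive and a GFP-negative group, and no group had 2 intact Eomes alleles. The 2 libraries of a genotype that share a replicate number came from 1 recipient. Rag2-/- mice lack T and B cells of their own but keep NK cells, which express the same killing genes. The labels give neither the age of the mice nor how many donors stood behind each transfer.

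Cytotoxic lymphocytes kill by 2 routes. In the first, granules that are modified lysosomes release perforin, which opens the membrane of the target cell, and granzymes, serine proteases that enter and cleave proteins there. In the second, the surface ligand FASL engages the death receptor FAS. CD8+ T cells and NK cells are the usual users of both, and CD4+ T cells can acquire them under chronic stimulation. EOMES and its relative T-bet are known in CD8+ T cells and NK cells as regulators of perforin and granzyme genes. Of the granzymes, granzyme B cleaves after aspartate and triggers caspases, granzymes A and K cleave after basic residues, and granzyme M is best known in NK cells.

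Gzma (13:113093825-113100979, minus strand) and Gzmk (13:113171608-113225908, minus strand) lie 70.6 kb apart on GRCm38 with 1 annotated gene, Gm9848, between them. Gzmb (14:56258856-56262260, minus strand) lies in another granzyme cluster, 24.2 kb from Gzmc, and Gzmm (10:79689020-79695261, plus strand) stands apart from both. Esm1 lies within the span of Gzmk on the opposite strand, and none of the 10 genes shared an exon position with another gene of the count files. The 250 bases before the start were taken from RefSeq (GRCm38.p6) for 9 of the 10 genes, 11 windows in all. They were searched on both strands for GGTGTGA, a half-site bound by T-box factors, and for TGTGGT, the core letters bound by RUNX factors. The 4 windows below belong to the 3 granzyme genes that are compared with each other and to perforin, and capitals mark the matches.
Gzmk, chr13:113180966-113181215, minus strand: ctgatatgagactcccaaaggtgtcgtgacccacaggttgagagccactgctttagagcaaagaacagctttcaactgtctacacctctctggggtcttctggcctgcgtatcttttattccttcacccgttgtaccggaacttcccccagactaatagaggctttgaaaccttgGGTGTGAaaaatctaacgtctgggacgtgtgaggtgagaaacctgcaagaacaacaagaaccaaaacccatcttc
Gzma, chr13:113100982-113101231, minus strand: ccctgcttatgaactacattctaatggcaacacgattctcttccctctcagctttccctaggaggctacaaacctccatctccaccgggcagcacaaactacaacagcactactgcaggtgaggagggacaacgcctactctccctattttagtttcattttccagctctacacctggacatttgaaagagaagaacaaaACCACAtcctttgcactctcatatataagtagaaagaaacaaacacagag
Gzmb, chr14:56262335-56262584, minus strand: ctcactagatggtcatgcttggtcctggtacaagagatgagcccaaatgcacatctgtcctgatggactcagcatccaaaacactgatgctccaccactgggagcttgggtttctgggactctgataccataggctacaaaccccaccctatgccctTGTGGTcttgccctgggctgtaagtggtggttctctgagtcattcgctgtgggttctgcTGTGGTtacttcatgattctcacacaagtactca
Prf1, chr10:61297586-61297835, plus strand: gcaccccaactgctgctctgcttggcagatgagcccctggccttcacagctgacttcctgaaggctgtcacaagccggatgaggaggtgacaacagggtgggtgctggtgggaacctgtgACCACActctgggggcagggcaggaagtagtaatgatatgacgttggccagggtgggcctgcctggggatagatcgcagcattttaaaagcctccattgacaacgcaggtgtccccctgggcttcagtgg

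The Gzmk window, which lies inside the gene span given above, held GGTGTGA 75 bases before the RefSeq start and no TGTGGT. The Gzma window held no GGTGTGA and 1 TGTGGT on the opposite strand, 50 bases before the start. The Gzmb window held TGTGGT at 93 and 34 bases before the start, and the Prf1 window held it on the opposite strand at 130 bases. GGTGTGA was also found 13 bases before the start of Nkg7 and 189 bases before the second of the Gzmm starts. TGTGGT was also found on the opposite strand in windows of Gzmm, Nkg7, Lamp1 and Srgn, at 247, 83, 22 and 202 bases. RefSeq starts can differ from the ends of the gene spans in the count files, and all the GGTGTGA matches lie inside those spans. Of all 32851 RefSeq mouse windows of this length, 3.33% held GGTGTGA and 14.05% held TGTGGT. A match describes letters in a window and is no evidence of binding.

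Eomes itself was read first. It stood at 9.19, 3.68 and 2.16 CPM (counts per 1000000 of the library total after TMM scaling) in the Het GFP-negative libraries 1 to 3 and at 115, 123 and 89.8 CPM in Het GFP-positive. In KO GFP-negative it stood at 4.73, 1.95 and 2.19 CPM and in KO GFP-positive at 46.6, 45.7 and 31.6 CPM. The reporter sort therefore separated high from low Eomes counts in both genotypes, with no overlap between the sorts. Counts over the whole gene do not separate the floxed part from the rest of the transcript, so they do not check the deletion.

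Depth differed between the sorts, with 11492908 to 18167236 counts per GFP-negative library and 2116894 to 8608902 per GFP-positive library, from 645000 to 2100000 and from 18000 to 117000 sorted cells. KO GFP-positive replicate 2 had the lowest total and held 13 counts of Gzma and 4 of Prf1. Summed over 6 CD4+ T cell markers, the libraries held 1473 to 2569 CPM, lower in the GFP-positive library in 6 of 6 recipients. The 2 CD8 markers reached 4.57 CPM in sum at most, and 5 B cell markers reached 2.12 CPM. The sum of 5 NK markers lay between 2.53 and 19.1 CPM and was higher in the GFP-positive library in 1 of 6 recipients. The sum of 10 myeloid markers lay between 43.1 and 4026 CPM and was higher in the GFP-positive library in 6 of 6 recipients, as were the sums of 7 mast cell and basophil and 6 erythroid markers. In bulk RNA, fewer cells of a type and less RNA per cell cannot be told apart.

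Per length of transcript (FPKM, computed from the counts), Nkg7 was the most abundant of the 10 genes in each of the 4 groups, with means of 209 to 372 FPKM. Gzma, Gzmb and Srgn followed in every group in changing order. The neighbours in that order, such as Gzmb at 92.6 ± 38.6 (SD, n = 3) and Gzma at 88.9 ± 38.7 FPKM in Het GFP-negative, did not differ beyond their spread. Gzmk had rank 7 of the 10 in Het GFP-negative with 8.37 ± 2.76 FPKM and rank 5 in Het GFP-positive with 60.3 ± 25.3 FPKM. Crtam was lowest in both GFP-negative groups, and Gzmm was lowest in both GFP-positive groups.

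**Figure D1:**
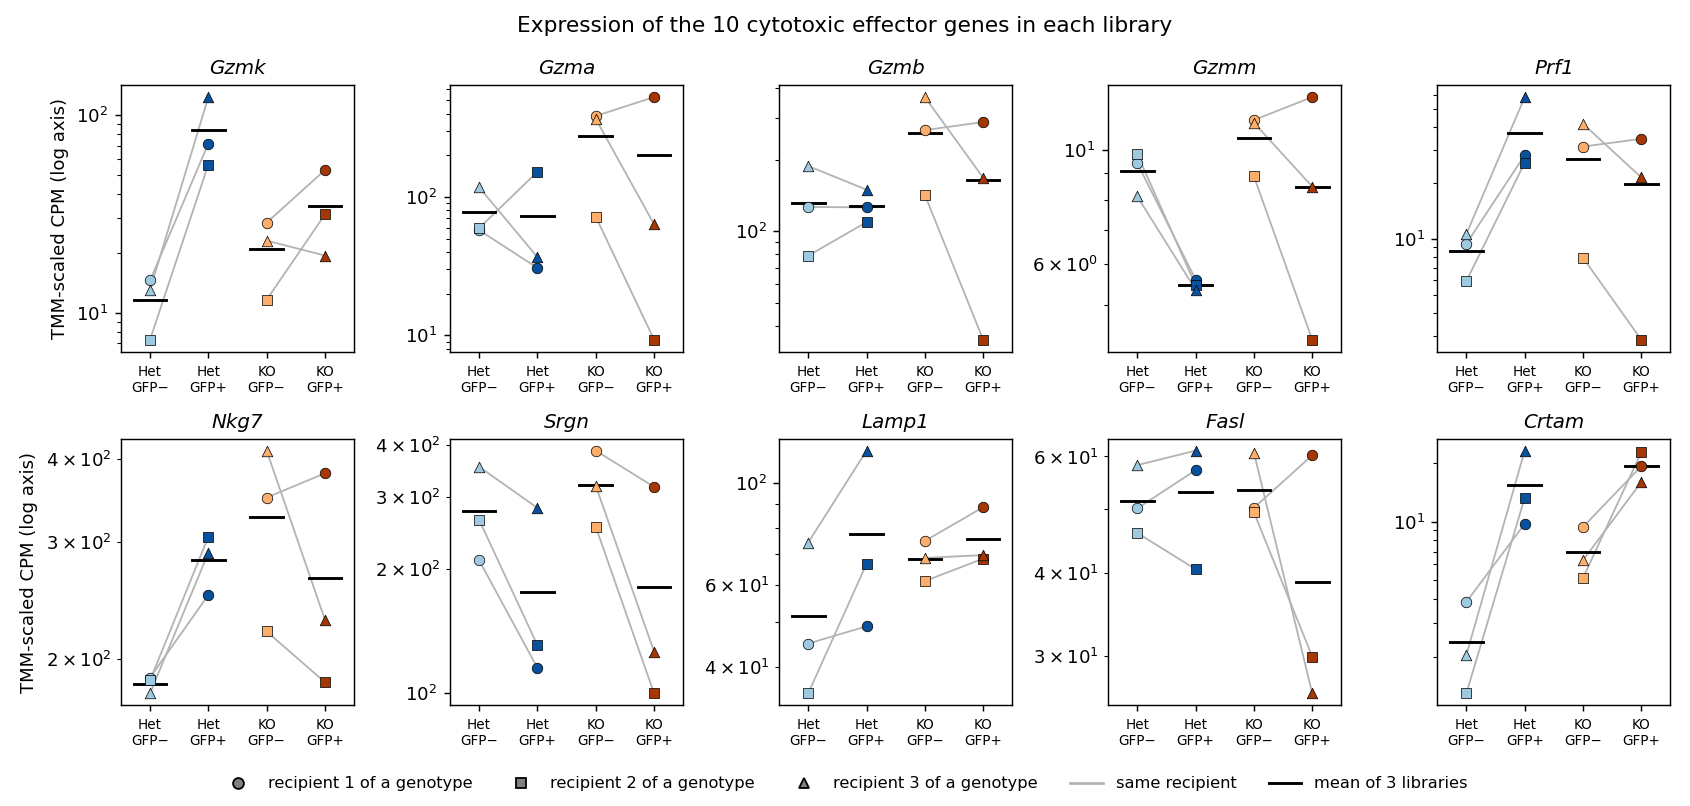
Each panel plots 1 gene, with TMM-scaled CPM on a log axis, by group. Points are libraries, grey lines join the 2 libraries of a recipient and black bars are means of 3 libraries; Gzmk and Crtam are the genes with the widest gap between the Het groups, while Gzma spans 9.28 to 526 CPM within KO GFP-positive.

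The first comparison named in the design asks which genes mark Eomes-expressing cells, by setting Het GFP-positive against Het GFP-negative. Gzmk, encoding a granzyme with trypsin-like activity, stood at 14.5, 7.28 and 13.1 CPM in the GFP-negative libraries and at 71.7, 56.2 and 123 CPM in the GFP-positive ones. The 2 groups did not overlap, and Gzmk was 4.93, 7.72 and 9.45 times higher in the GFP-positive cells of recipients 1, 2 and 3. It rose by 2.86 ± 0.45 on the log2 scale (estimate ± SE; adjusted p = 0.00752, edgeR's quasi-likelihood test, adjusted by Benjamini-Hochberg). Crtam, encoding a surface receptor that marks CD4+ T cells with cytotoxic potential, stood at 3.84, 1.29 and 2.04 CPM against 9.74, 13.3 and 23.3 CPM. It rose by 2.71 ± 0.43 (adjusted p = 0.00797, same edgeR test). These were the 2 of 10 genes that passed, both higher, where 1.82% of all tested genes were called higher and 3.45% were called in either direction. Both were called in all 19 alternative analyses of this comparison, each omission of 1 library included. DESeq2 called 3 of the 10, adding Prf1 (adjusted p = 0.0173), where it called 9.03% of all tested genes. limma-voom also called 3, adding Nkg7 (adjusted p = 0.0434), where it called 16.5%.

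Prf1, encoding the pore-forming protein perforin, stood at 9.42, 5.92 and 10.6 CPM in Het GFP-negative and at 28.3, 25.8 and 58.2 CPM in Het GFP-positive. The groups did not overlap and the ratio within recipients was 3.00, 4.35 and 5.48. Its log2 difference of 2.13 ± 0.66 did not pass the test (adjusted p = 0.0984, edgeR). Nkg7, encoding a granule membrane protein needed for efficient degranulation, stood at 187, 185 and 177 CPM against 249, 305 and 289 CPM, with no overlap and a log2 difference of 0.62 ± 0.27 (adjusted p = 0.198, edgeR). Gzmm was the 1 gene lower without overlap, at 9.42, 9.80 and 8.12 CPM against 5.60, 5.46 and 5.35 CPM (log2 difference -0.73 ± 0.30, adjusted p = 0.173, edgeR). Thus 4 of the 10 genes were higher and 1 was lower with non-overlapping groups, where 12.7% and 14.6% of all tested genes were.

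Summed over the 12 libraries, Gzma and Gzmb were the granzyme genes with the highest counts, 23468 and 26104. In Het GFP-positive libraries 1 and 3, however, Gzmk had more counts than Gzma, 538 against 230 and 1268 against 377. Gzma stood at 57.5, 59.4 and 117 CPM in Het GFP-negative and at 30.7, 152 and 36.7 CPM in Het GFP-positive, so that 1 GFP-positive library was above and 2 were below all GFP-negative ones. Its log2 difference was -0.13 ± 1.03 (adjusted p = 0.955, edgeR). Gzmb stood at 127, 79.0 and 188 CPM against 126, 109 and 150 CPM, with the GFP-positive values inside the range of the others (log2 difference -0.03 ± 0.55, adjusted p = 0.983, edgeR). With these standard errors neither estimate bounds the difference closely, least of all for Gzma.

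Recipients differed in these genes, and the comparison within recipients removes that part of the spread. With the recipient as a block in the same edgeR model, 6 of the 10 genes were called, 5 higher and 1 lower, where 12.8% and 9.41% of all tested genes were called higher and lower. Prf1 then rose by 2.06 ± 0.25 (adjusted p = 0.000438), Nkg7 by 0.61 ± 0.18 (adjusted p = 0.0311) and Lamp1, encoding a lysosomal membrane glycoprotein exposed on the surface when granules fuse, by 0.56 ± 0.16 (adjusted p = 0.0270). Srgn, encoding serglycin, the proteoglycan that packs granzymes and perforin in the granule, fell by 0.73 ± 0.21 (adjusted p = 0.0311). Gzmk and Crtam rose by 2.83 ± 0.28 and 2.68 ± 0.40 in that fit. Gzmm, at an adjusted p of 0.0558, and Gzma, Gzmb and Fasl did not pass. Leaving out both libraries of 1 recipient changed these blocked calls: Nkg7 was not called without any of the 3 recipients, Lamp1 was called without recipient 1 only and Srgn without recipient 3 only, while Gzmk, Crtam and Prf1 were called each time.

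Lamp1 and Srgn are not limited to T cells. Lamp1 stood at 44.9, 35.1 and 74.2 CPM in Het GFP-negative and 48.9, 66.7 and 117 CPM in Het GFP-positive. The summed myeloid markers of the same libraries were 201, 799 and 1697 CPM and 516, 2326 and 4026 CPM. Both quantities were highest in the third recipient in each sort, and the part of the myeloid cells in the Lamp1 difference was not tested. Srgn stood at 210, 263 and 354 CPM against 115, 131 and 281 CPM. Between the sorts it went in the opposite direction to the myeloid sum in each recipient. Across recipients it followed the order of the myeloid sums in both sorts. The part of the myeloid cells in the Srgn levels was not tested. Fasl, encoding the ligand of the death receptor FAS, stood at 50.1, 46.0 and 58.2 CPM against 57.2, 40.6 and 61.2 CPM, with overlapping groups and a log2 difference of 0.05 ± 0.27 (adjusted p = 0.928, edgeR).

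**Figure D2:**
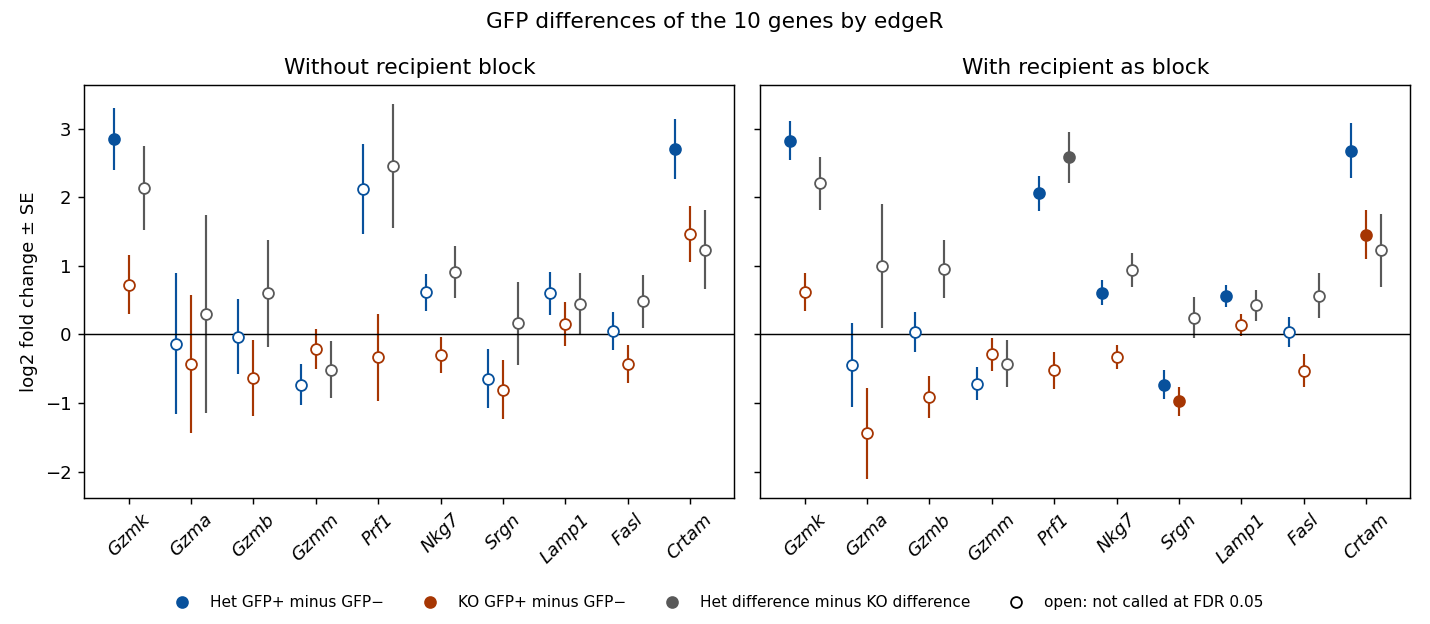
Log2 fold changes of the 10 genes with their SE, from edgeR without (left) and with (right) the recipient as a block, for the GFP difference in Het, in KO and the Het difference minus the KO difference. Filled points passed an adjusted p of 0.05: 2 in Het on the left, and 6 in Het, 2 in KO and 1 of the differences on the right.

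The same sort was compared in the KO donors. Crtam was the 1 gene higher without overlap, at 9.37, 5.11 and 6.31 CPM in KO GFP-negative and 19.3, 22.8 and 16.0 CPM in KO GFP-positive (log2 difference 1.47 ± 0.41, adjusted p = 0.183, edgeR). Gzmk stood at 28.5, 11.6 and 23.1 CPM against 52.7, 31.4 and 19.4 CPM, with overlap (0.73 ± 0.43, adjusted p = 0.371, edgeR). No gene of the 10 passed edgeR's test, where 0.128% of all tested genes did. 1 had an unadjusted p under 0.05, as had 17.5% of all tested genes. DESeq2 called 1 of the 10 and 3.04% of all tested genes, and limma-voom called 5 of the 10 and 43.9%. Of all tested genes, 9.52% were higher and 10.8% lower without overlap.

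With the recipient as a block, Crtam rose by 1.46 ± 0.36 (adjusted p = 0.0222, edgeR) and Srgn fell by 0.98 ± 0.22 (adjusted p = 0.0145, edgeR), where 9.60% of all tested genes were called higher and 8.14% lower. Srgn stood at 388, 253 and 319 CPM in KO GFP-negative and 317, 99.9 and 126 CPM in KO GFP-positive. Prf1 stood at 31.5, 7.90 and 41.8 CPM against 34.6, 2.86 and 21.4 CPM, and its blocked log2 difference did not pass. Nkg7 stood at 350, 220 and 411 CPM against 380, 184 and 229 CPM, also without a call. Neither Crtam nor Srgn was called by the blocked fit without KO recipient 2 or without KO recipient 3.

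The blocked KO calls changed with the omission of any 1 recipient. In recipient 1, 9 of the 10 genes were higher in the GFP-positive library, Srgn being the exception. In recipients 2 and 3 Gzma, Gzmb, Gzmm, Prf1, Nkg7 and Fasl were lower in that library. Gzma, the most variable of the 10, stood at 384, 71.9 and 366 CPM in KO GFP-negative and 526, 9.28 and 63.4 CPM in KO GFP-positive. Gzmb stood at 266, 142 and 367 CPM against 288, 35.0 and 168 CPM. Fasl stood at 50.2, 49.4 and 60.8 CPM against 60.2, 30.0 and 26.4 CPM. Without both libraries of KO recipient 1, the blocked edgeR fit called 7 of the 10 genes: Crtam higher, and Gzma, Gzmb, Prf1, Nkg7, Fasl and Srgn lower. That fit called 14.1% of all its genes higher and 14.9% lower. Gzma then differed by -2.62 (adjusted p = 0.00592) and Gzmb by -1.46 (adjusted p = 0.00127). This omission was chosen after seeing the data, and it kept KO GFP-positive replicate 2 with its 13 counts of Gzma and 4 of Prf1. The blocked fits without KO recipient 2 and without KO recipient 3 called 0 of the 10 genes. Over all genes they called 652 of 13536 and 319 of 13561. Without the block, leaving out KO GFP-positive replicate 1 alone gave 2 calls by edgeR, Fasl at -0.94 (adjusted p = 0.0240) and Srgn at -1.49 (adjusted p = 0.0317), where 7.31% of all its genes were called lower. The summed NK markers were highest in KO recipient 1, at 17.1 CPM in the GFP-negative and 19.1 CPM in the GFP-positive library. They were 8.39 and 5.71 CPM in recipient 2 and 9.49 and 2.59 CPM in recipient 3. Gzma was highest in recipient 1 in both sorts. Gzmb and Prf1 were highest in recipient 1 among the GFP-positive libraries and in recipient 3 among the GFP-negative ones. The part of NK cells in the Gzma and Prf1 levels was not tested.

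The difference between the GFP effects of Het and KO was tested as an interaction, which without the block called none of the 10 genes and 0.00755% of all tested genes. 3 of the 10 had an unadjusted p under 0.05, as had 1.99% of all tested genes, and neither DESeq2 nor limma-voom called any. With the block Prf1 was called: its GFP difference was 2.58 ± 0.37 larger on the log2 scale in Het than in KO (adjusted p = 0.0359, edgeR), where 0.0755% of all tested genes were called. All 3 Het recipients had more Prf1 in the GFP-positive library, against 1 of 3 KO recipients. The interaction of Gzmk was 2.21 ± 0.39 with an adjusted p of 0.0804 in the same edgeR fit. Gzmk passed with the block and an offset for GC content and exon length (2.20, adjusted p = 0.0397) and with the block without KO recipient 2 (2.49, adjusted p = 0.0410). Prf1 was not called without any 1 of the 3 Het recipients or without KO recipient 3.

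**Figure D3:**
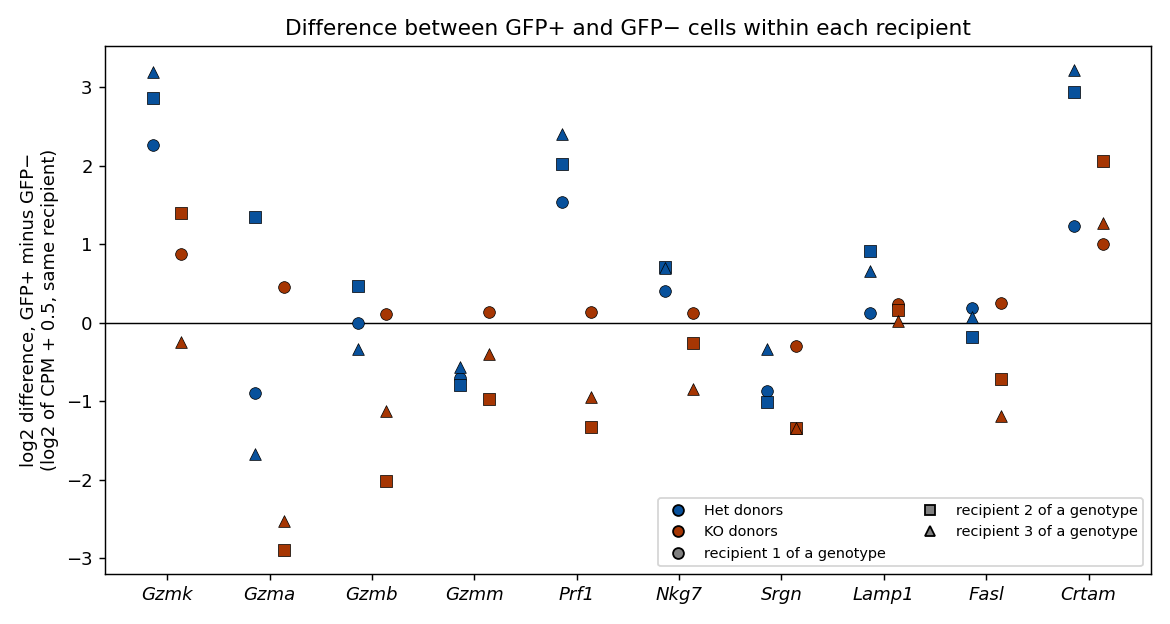
For each gene the points give the log2 difference (of CPM + 0.5) between the GFP-positive and GFP-negative library of 1 recipient, 3 Het and 3 KO. Crtam and Lamp1 lie above 0 in 6 of 6 recipients, Srgn lies below 0 in 6 of 6, and Gzma ranges from -2.89 to 1.35.

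Within recipients, Crtam and Lamp1 were higher in the GFP-positive library in 6 of 6, Gzmk in 5, Prf1 and Nkg7 in 4, Fasl in 3, Gzma and Gzmb in 2, Gzmm in 1 and Srgn in 0. The exception for Gzmk was KO recipient 3, with 23.1 CPM in the GFP-negative and 19.4 CPM in the GFP-positive library. Of all tested genes, 17.7% were higher and 19.9% lower in 6 of 6 recipients. For Lamp1 the excess in the KO recipients was 1.18, 1.12 and 1.01 times, against 1.09, 1.90 and 1.58 times in the Het recipients.

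Gzmk was set against Gzma and Gzmb inside each library, where no scaling factor enters. The ratio of Gzmk to Gzma counts was 0.253, 0.123 and 0.111 in the Het GFP-negative libraries and 2.34, 0.371 and 3.36 in Het GFP-positive. In KO it was 0.0744, 0.162 and 0.0633 against 0.1002, 3.30 and 0.307, the value of 3.30 resting on 44 and 13 counts. The ratio was higher in the GFP-positive library in 6 of 6 recipients, by a mean log2 difference of 2.79 (SD 1.70, n = 6, exact sign-flip permutation p = 0.03125, the smallest that 6 recipients allow, two-sided, and 0.09375 after Benjamini-Hochberg adjustment over 6 tests). The differences ran from 0.43 in KO recipient 1 to 4.91 in Het recipient 3.

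The ratio of Gzmk to Gzmb counts was 0.115, 0.0926 and 0.0695 in Het GFP-negative and 0.570, 0.515 and 0.825 in Het GFP-positive, without overlap. In KO it was 0.107, 0.0818 and 0.0631 against 0.183, 0.899 and 0.116, also without overlap. The ratio was higher in 6 of 6 recipients by 2.24 on the log2 scale (SD 1.21, n = 6, exact sign-flip permutation p = 0.03125, adjusted 0.09375). Its spread between the 3 Het GFP-positive libraries was smaller than that of the Gzmk to Gzma ratio, 0.36 against 1.70 (SD of log2). The ratio of Gzma to Gzmb differed by -0.55 (SD 0.94, higher in 2 of 6 recipients, exact sign-flip permutation p = 0.1875, adjusted 0.375). A ratio that moves shows unequal change of its genes, not which of them changed.

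**Figure D4:**
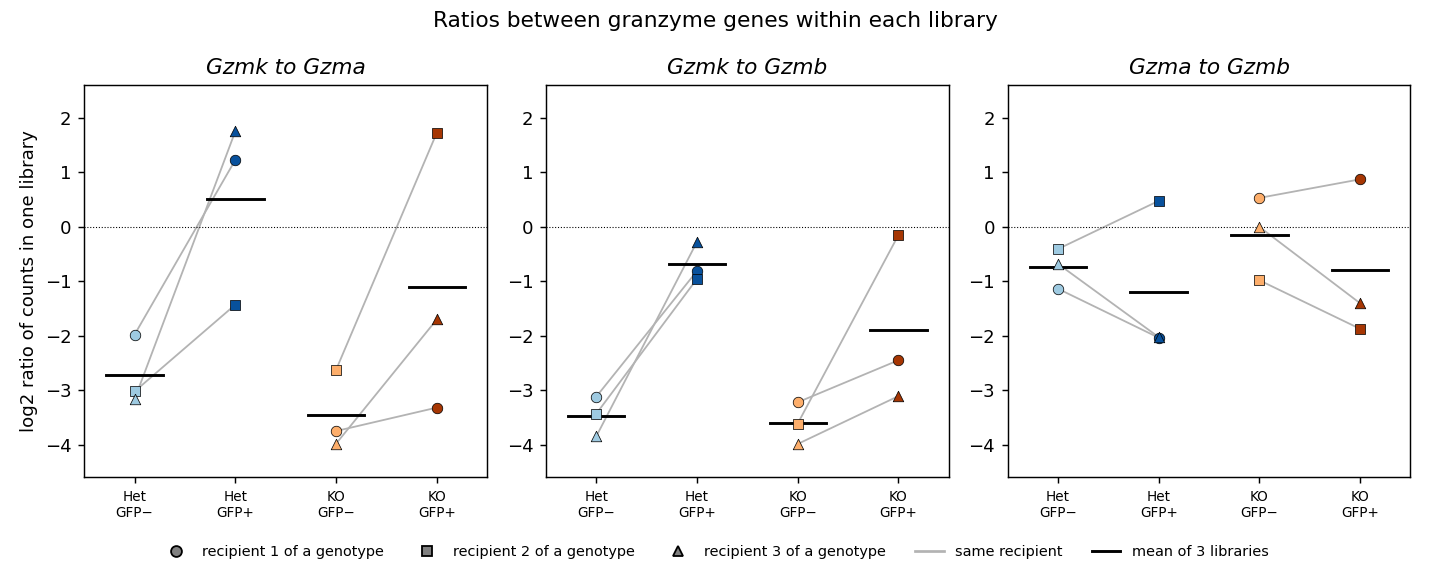
The log2 ratio of counts of 2 granzyme genes in each library, by group, with lines joining the libraries of a recipient and bars at the means. The lines of Gzmk to Gzma and Gzmk to Gzmb go up from GFP-negative to GFP-positive in 6 of 6 recipients, and those of Gzma to Gzmb go up in 2 of 6.

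The second comparison named in the design asks which genes depend on EOMES, by setting Het GFP-positive against KO GFP-positive. It shares the Het GFP-positive libraries with the first comparison, so the 2 are not independent. Gzmk was the 1 gene without overlap, at 71.7, 56.2 and 123 CPM in Het and 52.7, 31.4 and 19.4 CPM in KO, where 4.22% of all tested genes were higher without overlap and 7.48% were in either direction. The log2 difference of 1.28 ± 0.44 did not pass (adjusted p = 0.557, edgeR). None of the 10 genes was called by edgeR, DESeq2 or limma-voom, and edgeR called 0.106% of all tested genes. Gzmk and Gzmm, 2 of the 10, had an unadjusted p under 0.05, as had 6.22% of all tested genes. Crtam stood at 9.74, 13.3 and 23.3 CPM in Het and 19.3, 22.8 and 16.0 CPM in KO (log2 difference -0.29 ± 0.41, adjusted p = 1.00, edgeR). Prf1 differed by 0.82 and Gzma by -1.51 ± 1.05, both with overlapping groups. The direction for Gzma turned without KO GFP-positive replicate 1, to 0.79. The ratio of Gzmk to Gzma was 1.61 higher in Het on the log2 scale and that of Gzmk to Gzmb was 1.22 higher (exact permutation p = 0.4 for each, adjusted 0.48), in a design of 3 against 3 whose smallest p is 0.1.

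Between the GFP-negative groups no gene of the 10 was called by edgeR, which called 0% of all tested genes there. 3 of the 10, Crtam, Nkg7 and Prf1, had an unadjusted p under 0.05, as had 5.25% of all tested genes, and neither DESeq2 nor limma-voom called any. All 10 estimates were lower in Het than in KO, with a median log2 difference of -0.85 where the median of all tested genes was 0.01. The estimate of Fasl, -0.06, turned to 0.023 without KO GFP-negative replicate 3. Crtam and Nkg7 were lower without overlap, by 1.53 ± 0.42 and 0.84 ± 0.27 on the log2 scale (adjusted p = 0.662 and 0.879, edgeR), where 5.89% of all tested genes were. Gzma stood at 57.5, 59.4 and 117 CPM in Het and 384, 71.9 and 366 CPM in KO GFP-negative cells. The genes vary together across recipients, so a common direction of the 10 does not count them as independent.

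The genes differed widely in how much the libraries of 1 group varied. Gzma had a within-group SD of 1.74 on the log2 scale, larger than that of 99.8% of the 9820 genes that averaged 5 CPM or more. Prf1 followed with 1.16 (98.6%) and Gzmb with 0.92 (97.1%), while Gzmk had 0.62 (91.5%) and Nkg7 0.36 (66.6%).

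Over the 12 libraries, the 3 genes whose centred log2 profiles lay nearest to Gzmk among 9819 others were Lrrk1, Abcb9 and Il10ra, at a mean absolute difference of 0.43, 0.43 and 0.46. Il10ra, encoding the interleukin-10 receptor alpha chain, stood at 46.0, 25.5 and 57.1 CPM in Het GFP-negative and 256, 175 and 215 CPM in Het GFP-positive. Nearest to Gzma were Klrd1, Klrg1 and Cx3cr1, at 0.53, 0.63 and 0.67. Klrd1 and Klrg1 encode lectin-like receptors of NK and effector T cells, and Cx3cr1 encodes the fractalkine receptor of late effector cells. Klrd1 stood at 73.0, 17.03 and 27.1 CPM in KO GFP-negative and at 74.8, 1.43 and 8.60 CPM in KO GFP-positive. It was highest in recipient 1 in each sort, as Gzma was. In KO GFP-negative, however, Gzma was nearly as high in recipient 3 as in recipient 1, at 366 against 384 CPM. Nearest to Gzmb were Gm8203, Hist1h3i and Nrarp, at 0.27, 0.30 and 0.31. The measure describes likeness over libraries that share donors' genotype, recipients and depth.

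Other genes of the pathway were read from lists by role. Of 6 further granzyme genes of the Gzmb cluster, Gzmd, Gzme, Gzmf, Gzmg and Gzmn did not pass the filter on low counts. Gzmc did, at 2.71, 3.61 and 5.85 CPM in Het GFP-negative and 0.267, 0.781 and 0.292 CPM in Het GFP-positive, and fell by 3.43 ± 0.63 on the log2 scale (adjusted p = 0.0141, edgeR), where 1.63% of all tested genes were called lower. In KO it did not pass edgeR's test without the block (adjusted p = 0.127) and was called lower with the block (-2.53 ± 0.53, adjusted p = 0.0124, edgeR), as well as by DESeq2 and limma-voom. It rests on 373 counts over 12 libraries. Whether its reads were shared with similar granzyme genes of this cluster was not examined, so its level is uncertain.

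Among 11 genes of granule proteases and their inhibitors, 1 was called lower in Het, where 1.63% of all tested genes were. This gene was Ctsw, encoding cathepsin W of NK and cytotoxic T cells. It fell by 1.06 ± 0.25 (adjusted p = 0.0389, edgeR), from 167, 214 and 167 CPM to 111, 96.0 and 56.6 CPM. With the block Ctsh, encoding cathepsin H, was also called, higher by 1.89 ± 0.45 in Het (adjusted p = 0.0138) and by 2.61 ± 0.53 in KO (adjusted p = 0.0109). In the third Het recipient Ctsh stood at 15.2 and 24.5 CPM, and the summed myeloid markers stood at 1697 and 4026 CPM. The part of myeloid cells was not tested. In KO the blocked fit also called Ctsl higher and the protease inhibitor genes Serpinb6a and Serpinb6b lower, by 0.77 ± 0.20 and 0.79 ± 0.25. With the block 1 of the 11 genes was higher and 1 lower in Het, against 12.8% and 9.41% of all tested genes. In KO 2 were higher and 2 lower, against 9.60% and 8.14%.

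Of 21 genes for granule transport and fusion, 19 were tested. edgeR called 0 of them in Het, where 8 had an unadjusted p under 0.05, as had 23.2% of all tested genes. DESeq2 called 2 of the 19, where it called 9.03% of all tested genes, and limma-voom called 6, where it called 16.5%. With the block 5 were higher and 1 was lower in Het, where 12.8% and 9.41% of all tested genes were. The 4 with the smallest p were Sytl3, a synaptotagmin-like effector of RAB27A (0.74 ± 0.13, adjusted p = 0.00294), Stx3 (2.22 ± 0.45, 0.00592), the granule fusion syntaxin gene Stx11 (0.57 ± 0.13, 0.00913) and the lysosome trafficking gene Lyst (0.63 ± 0.15, 0.0123). In KO the block called Sytl3 higher and Snap23 and Sytl2 lower. These were 1 and 2 of the 19, where 9.60% and 8.14% of all tested genes were called. Stx3 was under 5 CPM in every library.

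Of 10 lysosome membrane genes edgeR called 0 in Het, where 1 had an unadjusted p under 0.05, DESeq2 called 1 and limma-voom called 2, against 23.2%, 9.03% and 16.5% of all tested genes. With the block Cd68 and Cd63 were higher and Cd164 lower, 2 and 1 of the 10, against 12.8% and 9.41%. Cd68 is also a macrophage marker, and its 5.05, 3.68 and 5.96 CPM against 6.40, 10.9 and 15.9 CPM in Het followed the order of the myeloid sums in the GFP-positive libraries, whose part was not tested. Of 12 tested genes for the glycosaminoglycan chains of serglycin, 1 was called higher in Het, where 1.82% of all tested genes were. Chst12, a chondroitin 4-O-sulfotransferase gene, rose by 0.79 ± 0.17 (adjusted p = 0.0306, edgeR). With the block Chst15 was also higher, by 1.12 ± 0.36 in Het and by 1.93 ± 0.37 in KO, while Srgn itself was lower. In that fit 2 of the 12 were higher and 0 lower in Het, against 12.8% and 9.41% of all tested genes. In KO 1 was higher and 1 lower, against 9.60% and 8.14%.

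Of 11 genes of the death receptor route, 1 was called higher in Het, where 1.82% of all tested genes were. This gene was Bid, encoding the caspase-8 and granzyme B substrate that carries the signal to mitochondria. It stood at 8.14, 5.58 and 10.2 CPM in Het GFP-negative and 24.7, 23.4 and 23.3 CPM in Het GFP-positive (1.57 ± 0.25, adjusted p = 0.00798, edgeR). In KO Bid stood at 11.1, 8.94 and 9.83 CPM against 12.5, 8.57 and 15.6 CPM. With the block 3 of the 11 were higher and 3 lower in Het, where 12.8% and 9.41% of all tested genes were. They included Fas, higher by 0.80 ± 0.17 (adjusted p = 0.00713), and Cflar, the gene of the caspase-8 inhibitor c-FLIP, lower by 0.58 ± 0.14 (adjusted p = 0.0145).

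Of 6 regulators of cytotoxic genes, Eomes and Zfp683 were called in Het, where 3.45% of all tested genes were. The reporter of Eomes defined the sort, so its call was given by the design. Zfp683, encoding HOBIT, a transcription factor of tissue-resident lymphocytes, fell by 2.85 ± 0.33 in Het (adjusted p = 0.00154, edgeR), and the log2 difference between Het and KO among GFP-positive cells was -5.25 ± 0.34 (adjusted p = 3.02e-05, edgeR). Tbx21, encoding T-bet, stood at 149, 136 and 74.2 CPM in Het GFP-negative and 146, 136 and 64.4 CPM in Het GFP-positive, nearly the same within each recipient (log2 difference with the block -0.08 ± 0.13, adjusted p = 0.689, edgeR). With the block Runx3 was also higher, by 0.62 ± 0.16, and Hopx lower, by 0.77 ± 0.16. In that fit 3 of the 6 were higher and 2 lower in Het, where 12.8% and 9.41% of all tested genes were.

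The authors' deposited table for Het, which lists 1406 genes with an adjusted p under 0.05, holds 4 of the 10 genes. The authors' deposited table gives Gzmk a log2 fold change of 2.55, Crtam 2.24, Prf1 1.87 and Nkg7 0.59. The authors' deposited table for KO, with 388 genes, holds Crtam at 1.25 and no other of the 10. The authors' deposited table for Het against KO GFP-positive cells, with 77 genes, holds none of them.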

How the data were processed

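The authors deposited whole-number read counts per gene for 12 libraries of rRNA-depleted, stranded total RNA (TruSeq Stranded Total RNA Gold, per the labels' protocols). Per the submitters' processing notes, mm10, bcl2fastq 1.8.4, TopHat2 2.0.13, featureCounts 1.5.0-p1 and DESeq2 1.6.1 were used, and the strand setting of the counting is not given in the sources used here. Per the file headers the count files also list exon coordinates and summed exon lengths. The authors also deposited DESeq2 tables, which per the file headers hold a mean normalized signal, a log2 fold change with its standard error, a test score, a p-value and an adjusted p-value. They were used for description.

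Counts were tested with edgeR's quasi-likelihood F-test (edgeR 4.0.16, R 4.3.3). TMM scaling and filterByExpr (minimum count 10, minimum total 15) were used, and 1 mean per group was fitted over 12 libraries. P-values were two-sided and adjusted by Benjamini and Hochberg over 13238 genes, with a call at 0.05. A standard error here is the log2 change over the root of its F value. CPM is counts per 1000000 of TMM-scaled library size, and FPKM divides it by summed exon length in kb. Log2 differences within recipients used CPM + 0.5, and ratios used counts + 0.5. An alternative added the recipient as a block. Same-numbered libraries of a genotype come from 1 recipient per the design text, and as a check, their deviations from group means had Pearson's r of 0.569, 0.262 and 0.648 in Het recipients, and of 0.526, 0.538 and 0.262 in KO recipients. Same-numbered Het and KO libraries were not paired. Tested on simulated counts for the Het comparison, the fit recovered 89 of 100 genes changed by 2 on the log2 scale and 33 of 100 changed by 1. The blocked fit recovered 88 and 17. The simulated counts held no recipient effect, unlike the paired libraries here, so they cannot show what the block gains or costs in these data.

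The 10 genes and all lists were chosen with earlier results of these data known. Named are the 10 genes, Eomes, at most 4 called genes per list and comparison with the smallest p, and the 3 nearest profiles of Gzmk, Gzma and Gzmb. Vamp7, Trdc and Trgc1 were not matched by symbol. Intervals are not given for counts, whose precision follows from the totals printed with the results.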

Additional observations from a re-analysis of the deposited data

Results flagged for a closer look

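The GFP difference of Prf1 was 2.58 larger on the log2 scale in Het than in KO with the recipient as a block (interaction, adjusted p = 0.0359, edgeR's quasi-likelihood test). Prf1 was higher in the GFP-positive library in 3 of 3 Het recipients and in 1 of 3 KO recipients.

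Zfp683, a regulator from the wider lists, differed between the genotypes in its GFP difference by -3.74 without the block (adjusted p = 0.0147) and with it (adjusted p = 0.000164, both edgeR's quasi-likelihood test). It was lower in the GFP-positive library in all 3 Het recipients and higher in all 3 KO recipients, at 50.6, 62.1 and 72.1 CPM in KO GFP-positive against 30.8, 29.6 and 39.2 CPM in KO GFP-negative.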

How the results depend on the processing

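Of 930 alternative values of single genes, 836 kept their direction and their side of the threshold, 43 passed it where the reported one did not, and 51 turned their sign. None of those 51 had a reported call. The alternatives marked by 1 recipient left out of a blocked fit were chosen after seeing the data, and calls count the 10 genes. The calls over all tested genes in the same settings follow in the next paragraph. In Het 2 calls became 6 with the replicate block and 5 with the block and a GC content and length offset. Without Het recipient 1 or 3 the block gave 4. It gave 3 without Het recipient 2, and so did edgeR with the offset, without the filter or with only the compared groups, DESeq2 and limma-voom. The gene added to Gzmk and Crtam was Nkg7 with the offset and by limma-voom, and Prf1 in the other 4. In KO 0 calls became 1 by DESeq2, 5 by limma-voom, 2 with the replicate block, 3 with the block and the offset, 2 without KO GFP-positive replicate 1 and 7 with the block without KO recipient 1. For the interaction 0 calls became 1 with the replicate block, 2 with the block and the offset, 1 with the block without KO recipient 1 and 2 without KO recipient 2. Gzmk and Crtam kept their Het calls in all 19 alternatives, and the cause of the other changes was not tested.

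Over all tested genes, the block moved the calls in Het from 457 to 2944 and in KO from 17 to 2349. DESeq2 gave 1196 in Het and 403 in KO, and limma-voom 2190 and 5808. The block with the offset gave 2819 in Het and 2239 in KO, each of 13238 genes. The offset alone gave 554 in Het, and only the compared groups gave 433 of 12593. Without KO GFP-positive replicate 1 the KO count was 1760. Without the filter it was 201, and in Het 897. Without Het recipients 1, 2 and 3 in turn, the block gave 1618 of 13538, 1070 of 13574 and 1817 of 13340 in Het. Without KO recipient 1 the block gave 3930 of 13544 in KO. For the interaction the calls went from 1 to 10 with the block and to 27 with the block and the offset. The blocked interaction gave 19 of 13544 without KO recipient 1 and 15 of 13536 without KO recipient 2.

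The GFP differences of the log2 ratios ran from 2.37 to 3.27 (Gzmk to Gzma) and from 1.98 to 2.54 (Gzmk to Gzmb) without each recipient in turn, with an exact permutation p of 0.0625, the smallest that 5 recipients allow. The Gzma to Gzmb ratio between Het and KO GFP-positive cells, -0.39, ran from -1.23 to 0.44.

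In Het, Gzma (-0.13) turned to 0.28 with the GC content and length offset, 0.40 by limma-voom and 0.28 with the block without Het recipient 3, and ran from -1.22 to 0.31 without single libraries. Gzmb (-0.03) turned to 0.25 with the offset, 0.14 by limma-voom, 0.033 with the replicate block, 0.30 with both block and offset, and 0.041 and 0.26 with the block without Het recipients 1 and 3, and ran from -0.28 to 0.34. Fasl (0.05) turned to -0.018 without the filter, -0.045 by limma-voom and -0.060 with the block without Het recipient 1, and ran from -0.033 to 0.19. Between Het and KO GFP-positive cells limma-voom turned Gzma to 0.49, Lamp1 to -0.088 and Srgn to 0.097. Lamp1 (0.04) also turned to -0.00131 without features above 5% of a library and to -0.012 with only the compared groups. Without single libraries Gzma ran there from -2.61 to 0.79, Gzmb from -0.85 to 0.25, Nkg7 from -0.13 to 0.41, Lamp1 from -0.41 to 0.29 and Srgn from -0.58 to 0.59. In KO limma-voom turned Gzmk to -0.070, and leaving out single libraries gave -2.77 to 0.10 for Gzma, -0.60 to 0.0073 for Gzmm and -0.92 to 0.12 for Prf1. Fasl between the GFP-negative groups ran from -0.18 to 0.023. In the interaction Gzma ran from -0.79 to 2.63 and Srgn from -0.34 to 0.83.

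Depth limits the KO GFP-positive group most, whose replicate 2 had 2116894 counts.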
